A study of Mus musculus with 3 samples.

Results

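Id1, Id2, Id3, Id4, Bmp4 and Smad6, 6 genes of the bone morphogenetic protein (BMP) pathway, were followed through single mouse embryonic stem (ES) cells with and without acute cohesin loss. They were chosen by name, and each symbol matched 1 row among the 52636 genes of the count tables. Measurements came from Smart-SCRB, a plate-based single-cell RNA sequencing method that counts unique molecular identifiers (UMIs), tags that mark single cDNA molecules. All cells derived from JM8.N4, a C57BL/6N ES cell line, in which the cohesin subunit RAD21 was fused to an auxin-induced degron, a tag that has the protein destroyed once auxin is added. Control cells carried the same degron and received no auxin, and the auxin-treated cells received 500 µM indole-3-acetic acid for 6 h. Both kinds of cells grew without feeders in serum with leukemia inhibitory factor and the 2i inhibitors PD0325901 and CHIR99021. There were 3 replicates, each with both conditions. The plates of replicate 1 are named RAD21 positive and RAD21 negative in the deposited annotation, and these names were taken as control and auxin. The sources used here do not say whether the names stand for a sort on RAD21 level, in which case the contrast of replicate 1 would be between sorted cells and not only between treatments.

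BMP ligands such as Bmp4 bind serine/threonine kinase receptors at the cell surface, which phosphorylate SMAD1, SMAD5 and SMAD9. These join SMAD4, enter the nucleus and switch on target genes, of which Id1, Id2 and Id3 are the classical early ones. Id proteins have a helix-loop-helix but no DNA-binding region, so they hold E proteins in dimers that cannot bind DNA, and in mouse ES cells grown in serum they are known to keep differentiation genes in check. Smad6 is a target as well, and its protein blocks the receptors and SMAD1 in a feedback loop.

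The genes lie on 6 chromosomes, so any coexpression among them is between chromosomes. In GENCODE M21 on GRCm38 (the mm10 assembly), Id1 is at chr2:152736251-152737410 on the plus strand, Id2 at chr12:25093799-25097140 on the minus strand and Id3 at chr4:136143497-136145755 on the plus strand. Id4 is at chr13:48261228-48266026 on the plus strand and overlaps A330033J07Rik and Gm49291 on the minus strand. Bmp4 is at chr14:46383520-46390669 on the minus strand and overlaps Gm15217 and Gm15222 on the plus strand. Smad6 is at chr9:63953076-64022059 on the minus strand. Id1, Id2, Id3 and Smad6 overlap no other annotated gene. Whether counting used the strand is not given in the sources used here, so reads of Id4 and Bmp4 and of their overlapping partners cannot be told apart.

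SMAD1 and SMAD5 bind GC-rich boxes, and the 2 stretches shown here hold such a box near a start site of these genes. GGCGCC, which reads the same on both strands, occurs in 11.9% of 32851 RefSeq promoters of 300 bases (250 before and 50 after the start, GRCm38.p6). RefSeq promoter entries were found for 5 of the 6 genes (not Id1), and GGCGCC occurred once in Id2 and once in Id4 and was not in the windows of Id3, Bmp4 and Smad6. A longer element, GGCGNC followed by 5 free bases and GTCT on either strand, was in 0.244% of all promoters and in none of the 5 windows. In the stretches, written 5′ to 3′ on the strand of the gene, capitals mark GGCGCC, which begins 231 bases before the RefSeq start of Id2 and 148 bases before that of Id4. The RefSeq start of Id2 is also the start of a GENCODE transcript but lies 1048 bases inside the gene bounds given for GENCODE, so the box is 817 bases inside them, in an intron of 1 of the 3 Id2 transcripts and in no exon. For Id4 the box lies upstream of the first base of the GENCODE gene.
Id2, chr12:25096306-25096335, minus strand: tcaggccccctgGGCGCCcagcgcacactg
Id4, chr13:48260956-48260985, plus strand: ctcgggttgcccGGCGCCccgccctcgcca
A match is a run of letters and was not tested for binding.

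The tables held 1536 wells on 16 plates, and wells with more than 2600 detected genes were analysed. Replicate 1 gave 168 control and 169 auxin-treated cells, replicate 2 gave 371 and 290, and replicate 3 gave 85 and 84, with medians of 72317 to 187088 UMIs per cell and 6064936 to 50448320 UMIs per replicate and condition. In replicate 3, the annotation and the source values of the study give opposite conditions for 2 of 4 plates, and these 168 cells were left out except where stated. Replicate 2 stood apart in ES cell markers, with Klf4 at 2.75 and Tfcp2l1 at 4.10 CPM (UMIs of a gene per 1000000 UMIs of all genes) in its control cells, against 72.7 to 140.7 and 248.9 to 299.8 in the control cells of the other replicates. Pou5f1 was low in replicates 2 and 3 (8.40 and 12.5 CPM in control cells) and at 273.3 CPM in replicate 1. Of the 9 ES cell markers, 9, 8 and 8 had a count in replicates 1, 2 and 3. Of these, 7, 8 and 5 were lower in auxin-treated than in control cells. Klf4 was among them in each replicate (64.5 CPM in replicate 1, 1.17 CPM in replicate 2 and 27.5 CPM in replicate 3 after treatment). The share of all genes lower in each single replicate was not counted. Dppa5a (2118 to 7998 CPM) and Tdgf1 (507.9 to 642.0 CPM), also markers of ES cells, were high in every set. Sox2 was listed at 0 in replicates 2 and 3 and at 154.8 CPM in the control cells of replicate 1, and 64 of the 3417 genes with at least 50 CPM in replicate 1 had no count in replicates 2 and 3, so levels are compared within replicates. Well barcodes are shared by design, since all 288 occur on more than 1 plate.

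Id3 was lower after cohesin loss in replicates 1 and 3 and slightly higher in replicate 2, a direction that for replicate 3 rests on the placement of its plates. Control cells of replicate 1 had 148.6 CPM and treated cells 64.4 CPM. The levels of replicate 3 were 63.8 CPM before and 32.9 CPM after treatment, and those of replicate 2 were 10.8 CPM before and 14.2 CPM after it. With all 4 plates of replicate 3 as annotated, Id3 was at 73.9 CPM before and 32.2 CPM after treatment there, and with the source values the direction turned, to 47.4 CPM before and 58.9 CPM after. The auxin-treated level was thus 43.4% of control in replicate 1, 51.6% in replicate 3 and 132.0% in replicate 2. Plates showed the same split. In replicate 1 the control plates were at 133.5 and 161.7 CPM and the auxin plates at 56.1 and 71.8 CPM. How many of all genes had plates apart in this way was not counted, so no result is read from it. In replicate 2 the 4 control plates lay between 10.1 and 12.3 CPM and the 4 auxin plates between 7.70 and 17.1 CPM, which overlap. Control levels also differed between replicates, with that of replicate 2 below every plate of the other replicates.

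Id1 followed the same pattern, again with a direction in replicate 3 that turned with the source values (20.4 CPM in control and 25.8 CPM in treated cells). Control cells of replicate 1 had 20.3 CPM and treated cells 9.05 CPM. Replicate 3 had 24.9 CPM against 13.3 CPM, and replicate 2 had 4.67 CPM against 5.27 CPM. Replicates 1 and 3 thus had 44.7% and 53.5% of the control level after treatment, and replicate 2 had 112.9%. Klf4, given with the ES cell markers, was lower after treatment in the same replicates 1 and 3 and in replicate 2 too, and its part in the Id1 and Id3 levels was not tested. The plates of replicate 1 were at 18.2 and 22.6 CPM in control and 6.96 and 10.9 CPM in auxin. Those of replicate 2 overlapped, at 2.20 to 6.74 and 2.91 to 8.77 CPM. As for Id3, the share of all genes with plates apart in replicate 1 was not counted.

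**Figure D1:**
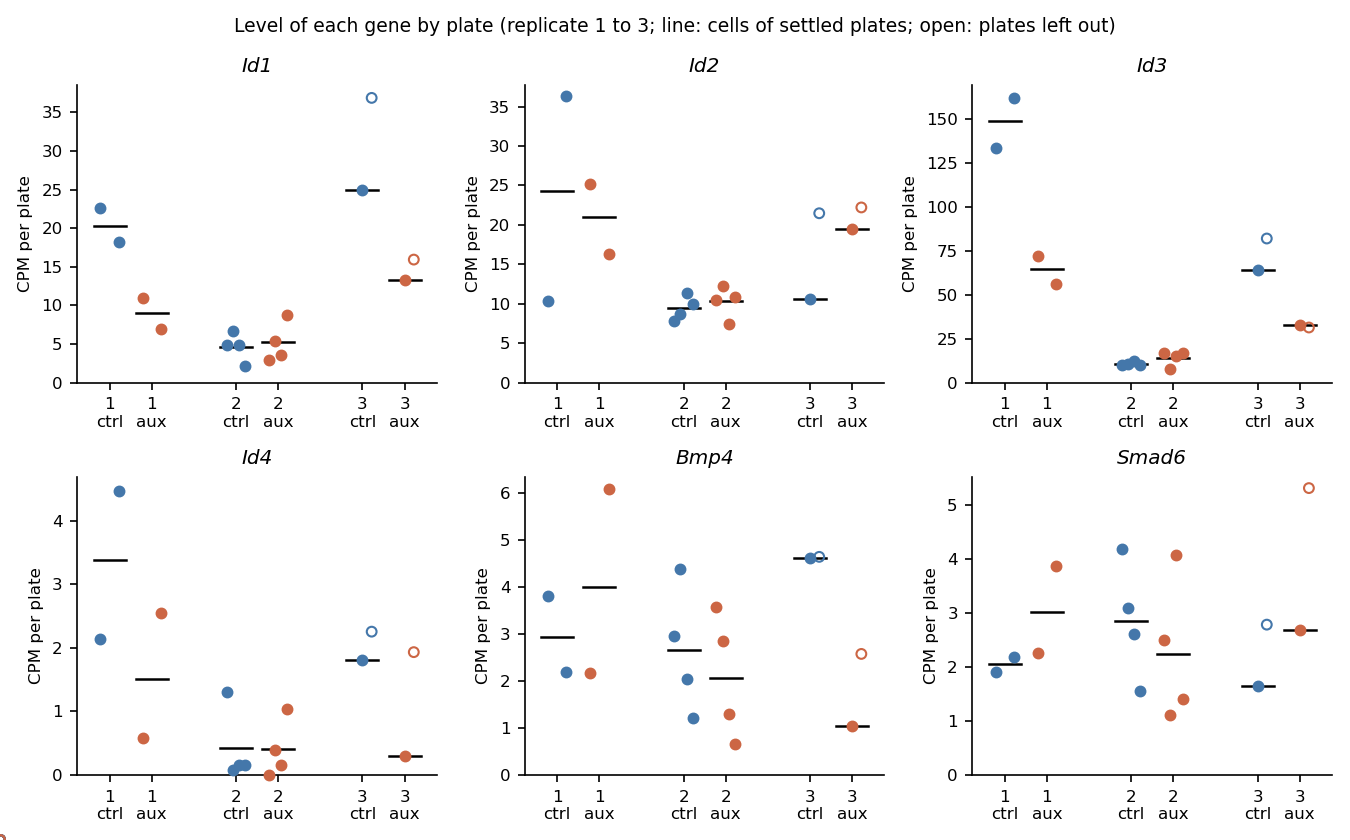
CPM of each gene on each plate (vertical axes start at 0), by replicate and condition. Filled points are plates used in the comparisons, open points the 2 plates of replicate 3 left out (drawn under their annotated condition), and black lines the level over the cells used. In replicate 1 the plates of Id1, Id3 and Smad6 lie apart by condition, a trait not counted over all genes, and in replicate 2 they overlap.

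Id2, whose protein binds the same E proteins, was lower in replicate 1 and higher in replicates 2 and 3. Control cells of replicate 1 had 24.2 CPM and treated cells 21.01 CPM. Replicate 2 had 9.50 CPM against 10.3 CPM, and replicate 3 had 10.6 CPM against 19.4 CPM. A single control cell of replicate 1 held 246 of the 437 Id2 UMIs there, 56.3% of them. Without the cell with most UMIs in each condition, the log2 ratio of auxin to control was 0.86 in replicate 1, 0.04 in replicate 2 and 1.08 in replicate 3, where it had been -0.21, 0.12 and 0.88 with all cells. With the disputed plates placed, the ratio in replicate 3 over all cells was smaller, at 0.323 as annotated and 0.319 with the source values. The control plates of replicate 1, at 10.4 and 36.4 CPM, enclosed the auxin plates at 16.3 and 25.2 CPM.

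Id4, a family member best known from neural tissue, was sparse. Replicate 1 held 61 Id4 UMIs among control and 29 among treated cells (3.38 against 1.51 CPM), replicate 2 held 21 against 21 (0.428 against 0.416 CPM) and replicate 3 held 11 against 2 (1.81 against 0.299 CPM). The ratio of auxin to control in replicate 3 was 0.165, with a 95% exact counting interval of 0.0178 to 0.756 that covers counting error only. Id4 was lower in 3 of 3 replicates, the only one of the 6 genes with a single direction, although in replicate 2 the log2 ratio was -0.04 and turned to 0.66 without the cell with most UMIs in each condition. Across all genes tested, 13.7% were lower in 3 of 3 replicates.

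Bmp4, the ligand, and Smad6, the inhibitor, had no common direction. Control and treated cells had 2.94 against 4.00 CPM of Bmp4 in replicate 1, 2.65 against 2.06 CPM for replicate 2 and 4.62 against 1.05 CPM for replicate 3. The last value rests on 7 UMIs. With the disputed plates placed, Bmp4 in replicate 3 was at 4.63 against 1.78 CPM as annotated and 3.58 against 2.95 CPM with the source values. Smad6 stood at 2.05 against 3.02 CPM in replicate 1, 2.85 against 2.24 CPM for replicate 2 and 1.65 against 2.69 CPM for replicate 3. With the source values the Smad6 order in replicate 3 turned, to 3.50 against 2.74 CPM. For both genes the plates of the 2 conditions overlapped in replicate 2, and for Bmp4 also in replicate 1. The Smad6 plates of replicate 1 did not overlap, at 1.91 and 2.18 CPM in control and 2.26 and 3.87 CPM in auxin.

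Auxin-treated levels under 60% of control in both replicates 1 and 3 were found for Id1, Id3 and Id4, 3 of the 6 genes, and for 4.04% of the 17514 genes tested. With the source values none of the 3 was under 60% in replicate 3 (126.7% for Id1, 124.2% for Id3 and 71.3% for Id4). The replicates and the limit of 60% were chosen after the values were seen, so the share describes these cells and has no test.

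Over the 3 replicates no difference of the 6 genes passed a test. The sums of each condition within a replicate were compared by edgeR's quasi-likelihood test with adjustment over all 17514 genes. The fitted log2 fold changes (auxin over control) were -0.89 (SE 0.71) for Id1, 0.12 (SE 0.62) for Id2, -1.06 (SE 1.05) for Id3, -1.31 (SE 1.16) for Id4, -0.41 (SE 0.74) for Bmp4 and 0.27 (SE 0.60) for Smad6, each with an edgeR adjusted p of 1.00. edgeR called 0 of the 17514 genes in all (0.0%; 33 had an unadjusted p under 0.05), and DESeq2 called 0 as well (66 had an unadjusted p under 0.05).

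With the replicate as a block, which removes differences in level between replicates, 3 genes were called (0.0171%), and none was a member. Id1 was then at -0.64 (SE 0.29, edgeR adjusted p = 0.846) and Id3 at -0.61 (SE 0.27, edgeR adjusted p = 0.845). Both had an unadjusted p close to 0.05 (0.0547 and 0.0537 by edgeR), a level that 5.92% of all genes reached in this fit. DESeq2 with the block gave an adjusted p to 10383 of the 17514 genes and called 56 of these (0.539%). Id1, Id2 and Id3 were not among them (DESeq2 adjusted p of 0.687, 0.993 and 0.490), and Id4, Bmp4 and Smad6 had no adjusted p.

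Replicate 2 decided whether Id3 was called. Without it and with the block, Id3 fell by 1.10 on the log2 scale (SE 0.16, edgeR adjusted p = 0.00277) and ranked 12 by p among 16756 genes, of which 32 (0.191%) were called. DESeq2 in the same setting gave -1.10 (SE 0.23, adjusted p = 0.00114) and called 24 of the 6685 genes with an adjusted p (0.359%). Id1 was at -1.05 (SE 0.27, edgeR adjusted p = 0.204) in that fit and was not called. This fit rests on 4 summed libraries, and without the block Id3 was not called there (-1.16, SE 0.78, edgeR adjusted p = 1.00). Leaving out replicate 1 or 3 instead gave -0.25 (SE 0.28) and -0.46 (SE 0.35) for Id3 with the block. The disputed plates of replicate 3 were left out of these fits, and no fit without replicate 2 was run with them placed. The call thus depends on their placement, since with the source values Id3 in replicate 3 was at 47.4 CPM before and 58.9 CPM after treatment. Whether the response of Id3 differs between replicate 2 and the others was not tested.

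**Figure D2:**
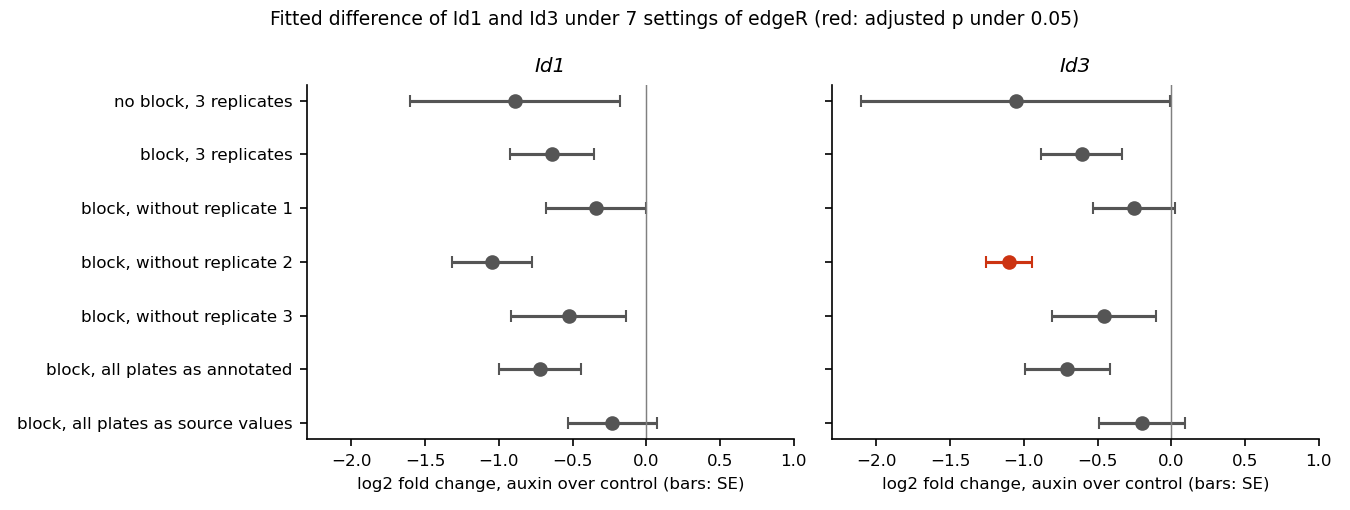
Fitted log2 fold change of Id1 and Id3, auxin over control, with its standard error (horizontal axis) in 7 settings of edgeR (vertical axis). All 14 estimates lie below 0, and the red point, Id3 with the replicate block and without replicate 2 at -1.10, is the only one with an adjusted p under 0.05.

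The 2 plates with opposite placements bear on Id1 and Id3. The plate annotated as control had Id3 at 81.9 CPM and Id1 at 36.9 CPM (19.8 CPM without 1 cell that held 131 of its 278 Id1 UMIs), and the plate annotated as auxin had 31.4 and 15.9 CPM. With the block and all plates as annotated, edgeR gave -0.70 (SE 0.29) for Id3 and -0.72 (SE 0.28) for Id1, both at an adjusted p of 0.719. With the source values it gave -0.20 (SE 0.29) and -0.23 (SE 0.30), both at an adjusted p of 0.985.

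Fewer cells were Id1-positive after cohesin loss in each replicate. Cells with at least 1 Id1 UMI made up 28.6% of control against 11.8% of treated cells in replicate 1, 9.16% against 6.55% for replicate 2 and 27.1% against 17.9% for replicate 3. The share was lower in 3 of 3 replicates, by 9.52 ± 7.07 percentage points (SD, n = 3; exact sign-flip permutation p = 0.25, two-sided, the smallest that 3 replicates allow). How many of all genes had fewer positive cells in 3 of 3 replicates was not counted, so this order is not read as particular to Id1. The 95% exact binomial intervals, which cover counting error only, did not overlap in replicate 1 (21.9% to 36.0% and 7.38% to 17.7%) and did in replicates 2 and 3. Cells were also thinned to 20000 UMIs to remove differences in depth, which left out the cells with fewer, 8 control and 13 treated cells of replicate 2, 1 and 5 of replicate 3 and none of replicate 1. Over the remaining cells the shares were 20.8% against 7.69% for replicate 1, 5.79% against 3.97% for replicate 2 and 17.9% against 12.7% for replicate 3.

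Id3-positive cells made up 70.8% of control against 55.0% of treated cells in replicate 1, 17.0% against 23.4% for replicate 2 and 51.8% against 34.5% for replicate 3. The mean difference was -8.86 ± 13.3 percentage points (SD, n = 3, exact sign-flip permutation p = 0.5), -3.34 with the source values of the disputed plates and -16.5 without replicate 2. Thinned to 20000 UMIs, they were 63.1% against 40.2%, 9.37% against 12.6% and 33.3% against 22.8% in the same order. The sign in each replicate was that of the CPM, and the 95% exact intervals of control and treated cells did not overlap in replicate 1 (63.3% to 77.6% and 47.2% to 62.7%) and overlapped in the others.

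Id2-positive cells were more frequent after treatment in replicates 1 and 3. They made up 15.5% of control and 27.2% of treated cells of replicate 1, 14.1% and 35.7% of those of replicate 3, and 16.7% and 16.2% of those of replicate 2. The mean difference was 10.9 ± 11.1 percentage points (SD, n = 3, exact sign-flip permutation p = 0.5), 4.47 with the source values and 5.70 after the thinning described for Id1. The 95% exact intervals did not overlap in replicate 3 (7.51% to 23.4% and 25.6% to 46.9%) and did in replicates 1 and 2. In replicate 1 the direction went against the Id2 CPM, of which 1 cell held more than all others together. Thinned shares were 10.7% against 19.5%, 9.92% against 8.66% and 10.7% against 20.3% for replicates 1, 2 and 3.

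Id4 was detected in 2.16% to 10.1% of cells, Bmp4 in 5.52% to 10.7% and Smad6 in 5.36% to 13.8%. Their mean differences were -3.07 ± 2.88, -1.35 ± 1.63 and 2.08 ± 1.77 percentage points (SD, n = 3, exact sign-flip permutation p = 0.5, 0.5 and 0.25). The Smad6 share was higher after treatment in 3 of 3 replicates. Thinned to 20000 UMIs it was lower in replicate 3, at 3.80% against 5.95%, so no order is read from it. Among 201 wells with at most 2600 detected genes and a median of 607 UMIs, which hold little RNA, 7 (3.48%) had an Id3 UMI, 3 an Id1 UMI and 1 an Id2 UMI.

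**Figure D3:**
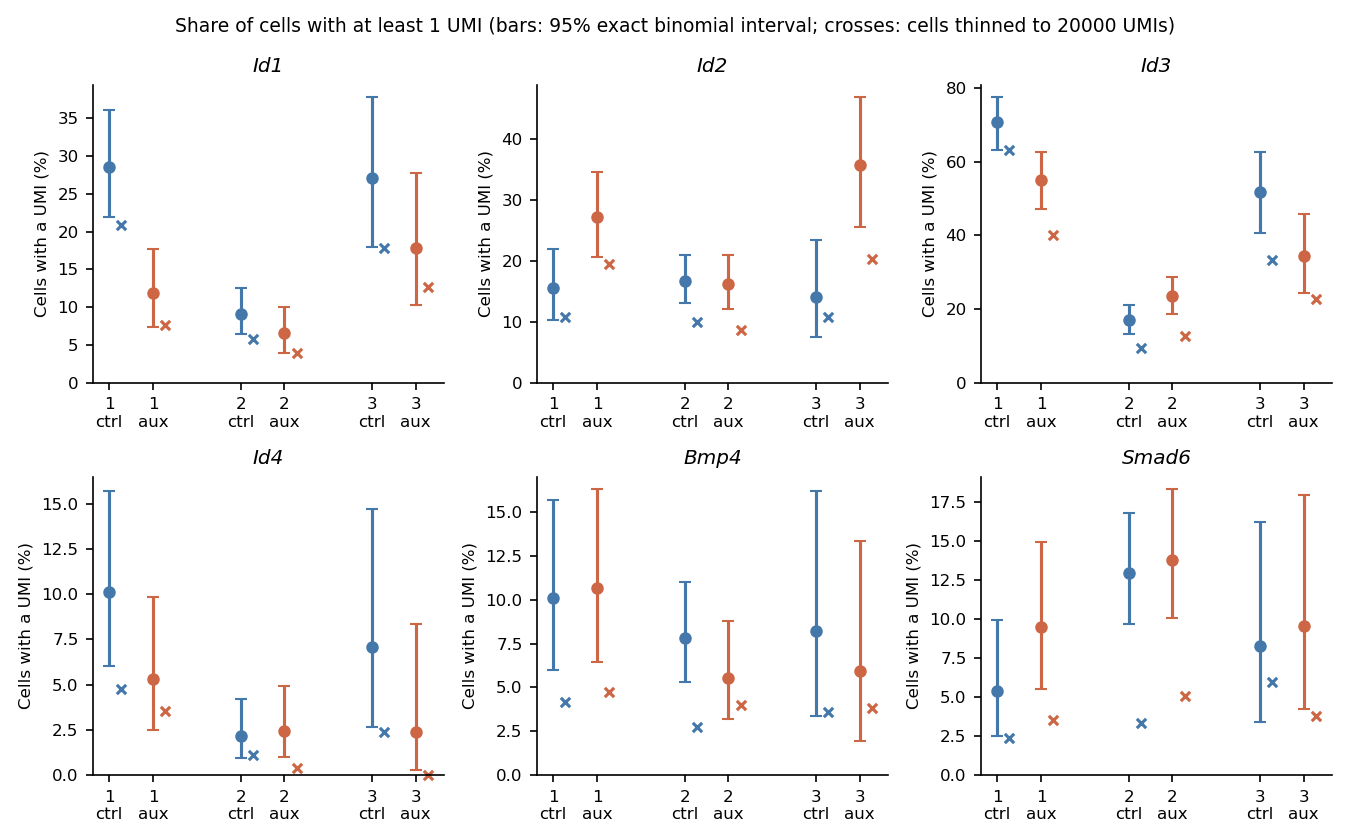
Percent of cells with at least 1 UMI of each gene, by replicate and condition, with 95% exact binomial intervals for counting error (bars) and the percent after thinning each cell to 20000 UMIs (crosses). Id1 shares are lower with auxin in each replicate, from 28.6% to 11.8% in replicate 1, while Id2 shares are higher in replicates 1 and 3.

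Id3-positive cells of replicate 1 mostly held several molecules. In its control cells they had a median of 16 UMIs, and only 2 of 119 had a single one. Cells with 30 or more Id3 UMIs made up 15.5% of control and 4.73% of treated cells there, cells with 10 to 29 made up 32.1% and 21.9%, and cells with none 29.2% and 45.0%. For replicate 3, cells with 10 to 29 Id3 UMIs made up 14.1% against 3.57%. In replicate 2 cells with 10 or more were rare in both conditions, with 4.04% and 7.59% at 10 to 29 and 0.809% and 1.03% at 30 or more. The median in Id1-positive cells was 5 UMIs before and 6 UMIs after treatment for replicate 1 and 4 UMIs in both conditions of replicate 3, so there the positive cells differed in number more than in content. In replicate 2, Id1-positive cells numbered 34 before and 19 after treatment, with medians of 4.5 and 11 UMIs. Smad6-positive cells of replicate 2 had a median of 1 UMI in both conditions, with a single UMI in 25 of 48 control and 22 of 40 treated cells.

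**Figure D4:**
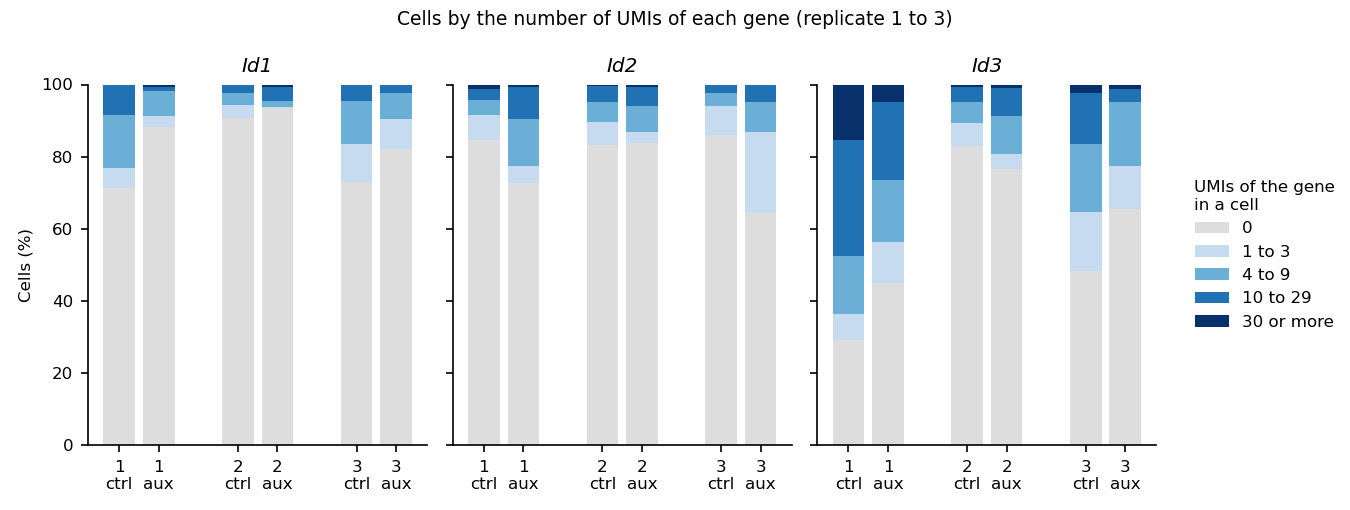
Stacked percent of cells by the number of UMIs of Id1, Id2 and Id3 that a cell held, by replicate and condition. The dark Id3 segments (10 or more UMIs) shrink with auxin in replicates 1 and 3, and cells without Id2 are fewer there, down to 64.3% in replicate 3.

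Cells with a UMI of at least 1 of Id1, Id2, Id3 and Id4 made up 81.0% of control against 68.6% of treated cells in replicate 1, 36.4% against 38.3% for replicate 2 and 62.4% against 63.1% for replicate 3. In replicate 1, 75 of 168 control cells had exactly 1 of the 4 genes, 49 had 2, 11 had 3 and 1 had all 4. In replicate 2, 2 of 371 control cells had 3 and none had all 4. Cells with 2 or more of the genes made up 36.3% of control against 22.5% of treated cells in replicate 1, 8.09% against 8.97% for replicate 2 and 28.2% against 22.6% for replicate 3.

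Correlations of the Id genes across cells were weak in every set. Id1, Id2 and Id3 reached the mean of 1 count per cell that the study set for correlations over all 1167 cells (1.09, 1.73 and 4.94), and Id4, Bmp4 and Smad6 did not. Within single sets the mean was lower, with Id1 at 0.617 and 0.917 UMIs per cell in control and treated cells of replicate 2 and Id2 at 0.753 in control cells of replicate 3. Id1 with Id3 had Spearman correlations of 0.19 in control against 0.10 in treated cells of replicate 1, -0.01 against 0.15 for replicate 2 and 0.28 against 0.13 for replicate 3. Those of Id1 with Id2 were 0.09 against 0.17, 0.20 against 0.11 and 0.26 against 0.27, above 0 in all 6 sets. For Id2 with Id3 they lay between -0.02 and 0.14. Cells of a set share plates and vary in depth, and zeros dominate, so these values are descriptions without a test.

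With the disputed plates of replicate 3 left out, no pair differed in the same direction in all 3 replicates. The change, auxin minus control, averaged -0.00050 ± 0.090 for Id1 and Id2, -0.03 ± 0.17 for Id1 and Id3 and 0.06 ± 0.08 for Id2 and Id3 (SD, n = 3, exact sign-flip permutation p = 1.0, 1.0 and 0.5). With those plates placed as annotated, Id2 with Id3 was higher after treatment in 3 of 3 replicates, at 0.04 against 0.14, -0.02 against 0.09 and 0.10 against 0.18 (mean change 0.10 ± 0.015, SD, n = 3, exact sign-flip permutation p = 0.25, the smallest possible). With the source values the order in replicate 3 was the opposite, at 0.17 against 0.03, and the mean change was 0.026 ± 0.14 (exact sign-flip permutation p = 1.0). Cells positive for both Id1 and Id3 numbered 39 of 168 control cells in replicate 1, where the product of the shares gives 34.0, and 18 of 85 in replicate 3, where it gives 11.9. In replicate 2 they numbered 5 of 371, where it gives 5.77. After treatment they numbered 14 of 169, 9 of 290 and 7 of 84 in replicates 1, 2 and 3, where it gives 11.01, 4.46 and 5.18. The doubly positive cells were deeper than all cells of their set in 6 of 6 sets, with medians of 112229 and 104442.5 UMIs in control cells of replicate 1, against larger gaps in control cells of replicate 2 (204374 and 143842 UMIs) and treated cells of replicate 3 (107730 and 75376.5 UMIs).

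**Figure D5:**
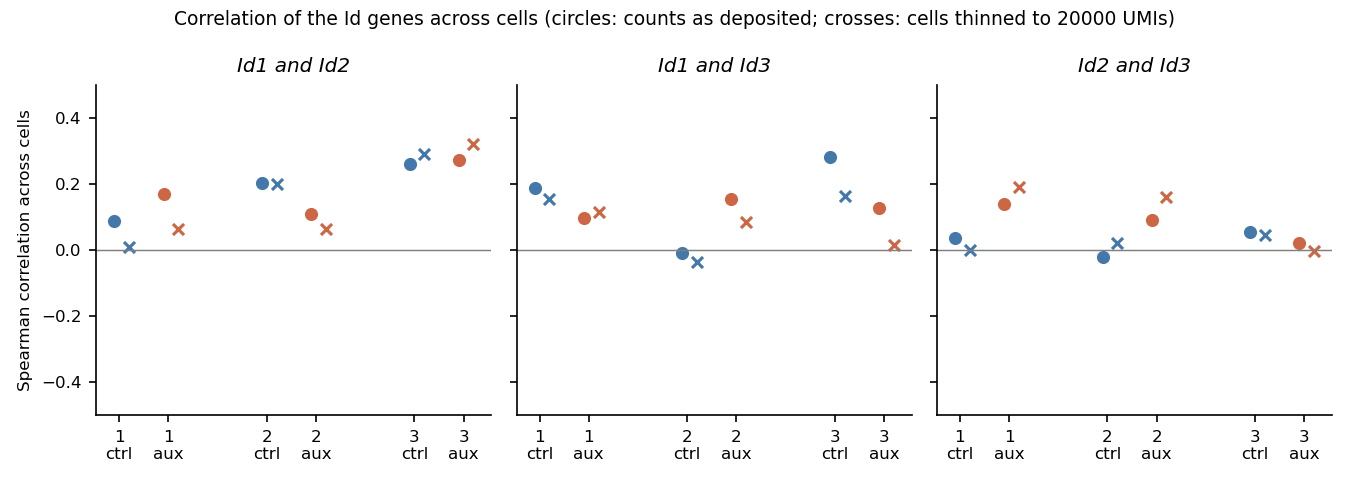
Spearman correlation across cells for 3 pairs of Id genes, by replicate and condition, from counts as deposited (circles) and after thinning to 20000 UMIs (crosses). All values lie between -0.04 and 0.32, and the 2 conditions are in no common order.

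Genes with a mean of 1 UMI or more per cell in each replicate were ranked by likeness to Id1 and to Id3 (6868 genes each). Id1 averaged 0.749 UMIs in replicate 2, under that limit, and was ranked for Id3 all the same. The gene most alike to Id1 was Id2, with a Spearman correlation of CPM per cell that averaged 0.18 over the 6 sets of replicate and condition (0.10 to 0.28; computed within each of 14 plates). Mest (0.17), Vim, an intermediate filament gene (0.17), Hmgn2 (0.16) and Stmn2 (0.15) came next, and Id3 was at rank 26 (0.13). For Id3 the 5 most alike were Manba (0.19), Myc (0.18), L1td1 (0.17), Dnmt3l, a cofactor of DNA methylation (0.16), and Enox1 (0.15), with Id1 at rank 49. These values are as weak as those among the Id genes.

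The rest of the pathway showed no called gene. Of 63 further genes in 7 lists, 62 were in the tables and 46 had enough counts to be tested. edgeR called 0 of the 46 without the block and with it. With the block and without replicate 2 it called 0 of the 41 that could be tested, and DESeq2 with the block called 0 of the 26 with an adjusted p. Levels were lower in 3 of 3 replicates for 6 of the 46 (13.04%) and higher for 11 (23.9%), beside 13.7% and 15.6% of all genes tested. Their median log2 fold change was -0.02, beside -0.00101 over all genes.

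By role, the ligands had 7 tested members, with 1 lower and 1 higher in 3 of 3 replicates. Gdf3, a nodal-like ligand of ES cells, stood at 364.2 CPM in control against 440.5 CPM in treated cells of replicate 1, 315.4 against 328.0 CPM for replicate 2 and 399.7 against 436.1 CPM for replicate 3 (log2 fold change with the block 0.14, SE 0.08, edgeR adjusted p = 0.865). Bmp7 averaged 13.03 and Bmp8a 2.60 CPM over the 6 sets. Of the receptors, 8 were tested, with Acvr2b (25.0 CPM), Bmpr1a (12.4 CPM) and Bmpr2 (9.23 CPM) the highest by CPM. The signal transducers Smad1 (19.9 CPM), Smad4 (13.6 CPM) and Smad5 (11.99 CPM) had log2 fold changes with the block of 0.02, 0.27 and 0.05 (SE 0.18, 0.21 and 0.22), so the transcripts of the pathway's own messengers were present in both conditions.

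Of the 8 inhibitors that act in the cell, Ppm1a, a phosphatase (51.6 CPM), Smad7, the relative of Smad6 (45.2 CPM), and Bambi, a pseudoreceptor (27.4 CPM), were the highest. Bambi was higher in 3 of 3 replicates, at 43.2 and 51.1, 14.7 and 21.2, and 13.9 and 20.2 CPM (log2 fold change with the block 0.41, SE 0.16, edgeR adjusted p = 0.826). Smad7 was lower in 3 of 3, at 103.8 and 91.2, 18.1 and 17.2, and 20.9 and 19.7 CPM (-0.14, SE 0.13, edgeR adjusted p = 0.909). Among the secreted antagonists Fstl1 (68.9 CPM), Dand5 (15.8 CPM) and Twsg1 (9.42 CPM) were the highest. The E protein partners Tcf3 (95.4 CPM), Tcf4 (51.7 CPM) and Tcf12 (34.4 CPM), which Id proteins sequester, had log2 fold changes with the block of 0.16, 0.10 and 0.29 (SE 0.11, 0.14 and 0.15).

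Among the 9 other tested target genes, Tbx3 (69.4 CPM), Msx2 (6.59 CPM) and Dusp9 (6.18 CPM) were the highest. Tbx3 had the signs of Id3 in each replicate, at 111.0 against 88.3 CPM, 1.75 against 2.12 CPM and 129.4 against 84.1 CPM for replicates 1, 2 and 3 (-0.30, SE 0.16, edgeR adjusted p = 0.853). Of all genes tested, 26.0% were lower in both replicates 1 and 3, whatever their order in replicate 2. Gata2 and Fst, an antagonist, are named after their values were seen. Gata2 was at 11.04 and 2.34 CPM, 0.897 and 0.852 CPM, and 5.94 and 0.748 CPM (-1.67 with the block, SE 0.57, edgeR adjusted p = 0.771). Fst was at 4.55 and 1.46 CPM, 12.6 and 2.58 CPM, and 2.80 and 1.94 CPM (-1.64 with the block, SE 0.44, edgeR adjusted p = 0.680).

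Markers of other cell types were checked beside the Id genes. The summed level of 7 trophoblast markers was 257.7 CPM before and 67.1 CPM after treatment in replicate 1, 22.2 and 44.9 CPM for replicate 2, and 26.7 and 41.4 CPM for replicate 3. Of the 7 genes, 6, 3 and 3 were lower after treatment in replicates 1, 2 and 3. Krt18 made up most of the difference in replicate 1, at 142.3 and 11.2 CPM, and went the other way in replicate 3, at 5.94 and 23.9 CPM. Krt8 (85.5 and 42.8, 11.2 and 8.52 CPM), Eomes (19.0 and 8.22, 3.96 and 2.09 CPM) and Krt7 (6.21 and 1.09, 2.47 and 0.897 CPM) were the 3 lower after treatment in both replicates 1 and 3. In replicate 2, Krt8 (2.55 and 8.94 CPM) and Krt7 (1.63 and 2.70 CPM) were higher and Eomes (1.73 and 0.0595 CPM) was lower. Tfap2a was at 4.38 and 3.64 CPM, 1.57 and 0.555 CPM, and 2.97 and 4.94 CPM, while Cdx2 was at or under 0.598 CPM and Elf5 at or under 0.449 CPM in every set. Their part in the Id1 and Id3 levels was not tested. Fibroblast markers (8 genes) summed to 5.66 CPM before and 3.74 CPM after treatment in replicate 1, 14.4 and 27.5 CPM for replicate 2 and 17.3 and 11.7 CPM for replicate 3, with 5, 3 and 7 of the genes lower. This sum had the directions of Id1 and Id3 in each replicate, and its part in their levels was not tested. Dcn made up most of its difference in replicate 2, at 10.6 and 22.6 CPM, and went against the sum in replicate 1, at 0.111 and 0.364 CPM. The share of all genes lower in each single replicate was not counted beside these marker counts. Primitive endoderm markers (7 genes) summed to 8.32 to 24.8 CPM and mesoderm markers (5 genes) to 1.61 to 4.12 CPM. Neural markers (5 genes) summed to 100.5 against 129.6 CPM for replicate 1, 19.5 against 19.4 CPM for replicate 2 and 2.31 against 1.79 CPM for replicate 3. Tubb3 (73.1 and 116.7 CPM) and Sox1 (26.8 and 10.8 CPM) made up most of this sum in replicate 1 and were listed at 0 in replicates 2 and 3, where the sums rest on 3 genes and 1 gene. In sums over cells, fewer positive cells and fewer molecules per positive cell cannot be told apart, which the shares and UMI classes given per cell address in part.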

How the data were processed

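Sorted RAD21-AID mouse ES cells of 3 replicates, control and auxin-treated, were profiled by Smart-SCRB. The authors used the mm10 assembly, and the values they deposited are raw UMI counts of each gene in each cell, with no normalization. The aligner, counter and annotation are not given in the sources used here. The deposited percent of counts from ERCC spike-ins and the deposited saturation fraction per plate were read and not used in a test. Spike-ins (3.648% of UMIs) and 11 other sequences without a mouse gene identifier were left out. Cells had more than 2600 detected genes, as in the study. Doublets were not called, since cells were sorted into wells. The RAD21 transcript does not report on the degraded protein and was not used as a check.

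CPM is the summed count of a gene per 1000000 summed gene UMIs. Sums per replicate and condition were tested with edgeR 4.0.16 (quasi-likelihood, TMM, filterByExpr, Benjamini-Hochberg adjustment over all genes tested, threshold 0.05) in R 4.3.3, with DESeq2 1.42.0 as an alternative. The SE given with an edgeR estimate is the size of the log2 fold change divided by the square root of its quasi-likelihood F statistic. The study states no test of levels. The replicate numbers pair the samples: across genes, how far each replicate's control sum lay from the control mean went with the same distance for auxin (Pearson's r of 0.866, 0.824 and 0.666), so fits with a replicate block are given too. P-values measure the spread between the replicates in a fit, and those of edgeR and DESeq2 also draw on dispersions estimated across all genes. This weighs most in fits that leave out 1 replicate. Binomial intervals are exact (Clopper-Pearson). Shares and changes of correlation were compared by exact two-sided sign-flip permutation tests, for which 3 replicates allow no p under 0.25. Scripts for the fits were tested on simulated data. Alternatives changed the block, the tool, the scaling, the filters on genes and cells, the depth per cell and the placement of the 2 disputed plates, or left out 1 replicate. Leaving out the cell with most UMIs was chosen after seeing the data. Positions came from GENCODE M21, which held 99.6% of gene identifiers, and promoter sequences from RefSeq (GRCm38.p6). Python 3.11.15, numpy 2.4.6, scipy 1.17.1 and pandas 2.3.3 were used.

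All 6 genes are named in full, other pathway genes by the 3 highest of each list in CPM, and for Id1 and Id3 the 5 most alike genes. The members, lists and tests were chosen with earlier results of these data known.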

Additional observations from a re-analysis of the deposited data

Results flagged for a closer look

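The 2 plates of replicate 3 left out of the main comparisons held 3 levels above those of every control plate used. Id1 was at 36.9 CPM on the plate annotated as control, where the highest control plate used was at 24.9 CPM. A single cell held 131 of its 278 Id1 UMIs, and without it the plate was at 19.8 CPM. Bmp4 was at 4.64 CPM on the same plate, against 4.62 CPM, and at 3.24 CPM without the cell with most UMIs. Smad6 was at 5.31 CPM on the plate annotated as auxin, against 4.18 CPM, and at 3.92 CPM without the cell with most UMIs. The source values of the study give both plates the opposite condition, and which placement holds was not tested.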

How the results depend on the processing

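Id1, Id3 and Id4 kept a negative log2 fold change in every alternative run (the mean of CPM per cell, averaged as log2 ratios over replicates, gave -0.64 for Id1, -0.40 for Id3 and 0.68 for Id2), and no alternative but the block without replicate 2 called a member, although DESeq2 with the block gave Id4, Bmp4 and Smad6 an adjusted p only with the source values, none to Id1 without replicate 1 or 2 and none to Id2 without replicate 1. The block without replicate 2 called Id3 (-1.10 by edgeR and, chosen after seeing the data, -1.10 by DESeq2). The number of genes called, 0 without a block, was 3 with the replicate block, 56 with DESeq2 and the block, and, in fits added after the data were seen, 3 (block, plates as annotated), 0 (block, source values), 98 (DESeq2 and block, plates as annotated) and 2 (DESeq2 and block, source values). Fits without 1 replicate called 0 genes without a block, 14, 32 and 2 with the block and 38, 24 and 31 by DESeq2 with the block (without replicates 1, 2 and 3), and gave log2 fold changes of -1.16 to -0.25 for Id3, -0.16 to 0.57 for Id2, where the negative values (-0.077 with the block, -0.10 by DESeq2 with it) came without replicate 3, -1.15 to 0.13 for Bmp4, -1.05 to -0.33 for Id1, -1.79 to -0.66 for Id4 and 0.036 to 0.62 for Smad6. Id2 turned to -0.00047 with plates as annotated and -0.011 with the source values, and Smad6 to -0.043 with the source values, -0.085 with the block added and -0.097 with DESeq2 and the block. The difference of the Bmp4 share turned to 0.67 percentage points after thinning. Without 1 replicate the differences ranged from -16.5 to -4.67 points for Id3, 5.62 to 16.7 for Id2, -13.0 to -5.91 for Id1, -4.74 to -2.21 for Id4, -2.29 to -0.88 for Bmp4 and 1.07 to 2.70 for Smad6. The change of correlation turned to 0.053 for Id1 and Id2 and 0.033 for Id1 and Id3 with plates as annotated, and that for Id2 and Id3 was 0.0997 there. Without 1 replicate it ranged from -0.042 to 0.047 and from -0.12 to 0.037, and the mean correlation of Id2 and Id3 moved from 0.053 to 0.088 with plates as annotated. The causes were not tested. Id4, Bmp4 and Smad6 had 2 to 140 UMIs per replicate and condition, which limits what can be seen of them.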
